A study of Mus musculus with 13 samples.

Results

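Regulatory T cells were sought among the single cells of mouse livers during cholestatic injury, as barcodes of T cells that carried RNA of Foxp3, the transcription factor that defines this lineage. A cell was taken as Foxp3+ when it had at least 1500 UMIs (unique molecular identifiers, each counting 1 captured RNA molecule), at least 1 UMI of Foxp3, at least 1 UMI of the T cell receptor subunits Cd3d, Cd3e and Cd3g together, no UMI of Cd8a, Cd8b1 or the epithelial gene Epcam, and at most 5 UMIs of the myeloid gene Lyz2. The cells were thus selected on these values, and Foxp3, Cd3, Cd8, Epcam and Lyz2 levels are given only as a description. The rule found 54 cells among 95563 cells of the 13 libraries, 18902 of which were Cd3-positive.

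All libraries came from the livers of young adult male C57BL/6J mice and differed in how long the animals had eaten chow supplemented with 3,5-diethoxycarbonyl-1,4-dihydrocollidine (DDC), a xenobiotic that inflames the bile ducts. D0 was the control without DDC, and the other diet groups were taken on days 3, 5, 9, 19 and 25, with day 18 animals counted as D19 by the authors. Each of these 6 time points had 1 library from each of 2 isolation protocols: protocol A mixed sorted CD45+, endothelial, stellate and biliary fractions, whereas protocol B mixed a CD3e+ Lyve-1- T cell fraction with dendritic cell, epithelial and stellate cell preparations. In the STOP library, made by protocol B, mice had eaten DDC for 18 days by the treatment protocol, with 18 and 19 both named in other labels, and then recovered for 7 days. How many mice entered a library was not given in the sources used here, and nothing named separate animals, so the p-values below measure only the spread between libraries, which may be technical.

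Regulatory T cells are CD4+ T cells that restrain other immune cells. They bind interleukin-2 through a high-affinity receptor whose alpha chain is Il2ra, they carry the inhibitory receptor Ctla4 and the TNF receptor family members Tnfrsf4 and Tnfrsf18, and many express the Ikaros family factor Ikzf2 (Helios). Those that settle in non-lymphoid tissue often express the IL-33 receptor Il1rl1, the lectin-like receptor Klrg1 and the epidermal growth factor family ligand Areg, while those that recirculate through lymph nodes keep the chemokine receptor Ccr7.

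The libraries held between 1541 and 14764 cells of at least 1500 UMIs, with medians of 3350 to 12013 UMIs per cell, and no pair of libraries shared more than 0.519% of the smaller one's barcodes. The 54 Foxp3+ cells held 315397 UMIs in all, 1721 to 16413 UMIs per cell with a median of 4673, and 766 to 4528 detected genes with a median of 1842. A count of 3 UMIs over all of them equals 9.51 CPM (a per-million level: the UMIs of a gene scaled to all UMIs of the same cells), which limits what could be seen. The cell with 1721 UMIs was the nearest above the threshold on depth, and 4 further barcodes with 1000 to 1499 UMIs met every other criterion and lay just outside it. The other criteria also left out barcodes of at least 1500 UMIs with Foxp3. In protocol B, those kept were 2 of 3 at D0, 1 of 3 at D3 and 5 of 8 at D5. They were 9 of 13 at D9, 9 of 18 at D19, 6 of 13 at D25 and 21 of 31 in STOP. Among those with Cd3, 5 at D25 and 7 in STOP failed on Epcam. The Cd3-positive cells used as a denominator below include cells that failed on Cd8, Epcam or Lyz2.

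Foxp3 was captured sparsely. The 54 cells held 65 UMIs of Foxp3, 46 cells had a single UMI and 8 had 2 or more. Ikzf2 was present in 32 of the 46 cells with a single Foxp3 UMI and in 7 of the 8 with more, so the cells with the least Foxp3 RNA also carried this further regulatory T cell marker in most cases. Cd4 was detected in 23 of the 54. Of 4 genes that the rule did not use, Ikzf2, Ctla4, Tnfrsf4 and Il2ra, 18 cells had all 4, 24 had 3, 6 had 2, 4 had 1 and 2 had none. The same combination of 3 or 4 of these genes occurred in 105 of 1770 Foxp3-negative Cd4+ T cells (5.93%) that passed the same Cd3, Cd8, Epcam and Lyz2 criteria and had at least 1 UMI of Cd4. Tnfrsf18, the receptor GITR, did not mark the population in these counts: it had 3 UMIs in the Foxp3+ cells, or 9.51 CPM, against 9.09 in the Foxp3-negative Cd4+ cells of the same libraries. The plan had named Tnfrsf18, not Tnfrsf4, as a marker beside Ikzf2, Ctla4 and Il2ra. All 4 genes counted here were called higher in the fit below, so this contrast is not independent of that fit. Of the 3 markers given for these cells, Foxp3 was required, Ikzf2 was found in 39 of the 54 and Cd4 in fewer than that, the 23 named above. Of the 2 cells with none of the 4 genes, that of D9 had 1 UMI of Cd3d and none of Trac, Trbc1, Trbc2 or Ptprc. Among its 3711 UMIs were 10 each of the endothelial genes Kdr and Dnase1l3, 5 of Stab2 and 8 of the hepatocyte gene Alb. Whether it is a T cell was not tested, and it is counted at D9 in all that follows.

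Free RNA can give a stray UMI to cells that do not express a gene, so Foxp3 was also counted in cells that should lack it. It was found in 0 of 1451 B-marked cells (Cd79a at 2 or more UMIs, no Cd3). Of these, 710 were from protocol A and 674 from D0 of protocol B. The other protocol B libraries held 4 to 14 B-marked cells each, too few to show a low share. Among Cd8-positive T cells without Cd4, 8 of 6853 in protocol B had Foxp3 (0.117%, exact 95% interval 0.0504 to 0.230). In protocol B it was found in 4 of 2622 endothelium-marked cells (0.153%, exact 95% interval 0.0416 to 0.390), which held 11806 UMIs per cell on average, and in 53 of 8311 Cd3-positive Cd8-negative gated cells (0.638%, 0.478 to 0.833), which held 4915. Foxp3 stood at 0.129 CPM in the endothelium-marked cells and at 1.57 in the gated T cells. In the D0 protocol B library the share, 0.139% of gated cells at a median of 2198 UMIs, lay below the endothelial share, while the Foxp3 level, 0.725 CPM from 3 UMIs, lay above the endothelial level. Whether the 2 D0 cells carried stray RNA was not tested. The libraries of D3 (0.366%, 0.00927 to 2.02) and D5 (0.284%, 0.0924 to 0.662) had intervals that included it. Those of D19 (0.620%, 0.284 to 1.17) and D25 (0.595%, 0.219 to 1.29) overlapped the endothelial interval, while D9 (1.08%, 0.496 to 2.05) and STOP (1.36%, 0.841 to 2.06) had intervals wholly above the pooled endothelial one. Within a library the endothelial share was less certain and not the same: 2 of 463 cells at D19 (0.432%, 0.0524 to 1.55), 1 of 238 at D25 (0.420%, 0.0106 to 2.32) and 1 of 456 at D5 (0.219%, 0.00555 to 1.22). It was 0 of 305 at D9, which allows up to 0.984%, and 0 of 859 in STOP, which allows up to 0.349%. Against its own endothelial cells, the lower bound of the gated share was therefore above that limit in STOP and below it at D9. All such intervals cover counting error only.

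To place the genes that define and accompany this population on the genome, the 250 bases upstream of a RefSeq transcription start, the first listed where a gene has more than 1, are shown for Foxp3 itself and for 3 genes that were higher in the Foxp3+ cells below: Ctla4, Il2ra and Il1rl1. All 4 lie on the plus strand of GRCm38.p6, Foxp3 at chrX:7579426-7579675, Ctla4 at chr1:60908775-60909024, Il2ra at chr2:11642542-11642791 and Il1rl1 at chr1:40429320-40429569. Capitals mark the core letters GGAAA, or TTTCC where they lie on the other strand, that NFAT factors, which act downstream of the T cell receptor, can bind.
Foxp3: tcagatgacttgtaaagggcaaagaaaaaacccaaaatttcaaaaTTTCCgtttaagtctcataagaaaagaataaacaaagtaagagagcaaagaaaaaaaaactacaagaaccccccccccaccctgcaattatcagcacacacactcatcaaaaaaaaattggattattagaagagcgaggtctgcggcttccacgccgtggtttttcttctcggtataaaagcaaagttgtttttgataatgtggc
Ctla4: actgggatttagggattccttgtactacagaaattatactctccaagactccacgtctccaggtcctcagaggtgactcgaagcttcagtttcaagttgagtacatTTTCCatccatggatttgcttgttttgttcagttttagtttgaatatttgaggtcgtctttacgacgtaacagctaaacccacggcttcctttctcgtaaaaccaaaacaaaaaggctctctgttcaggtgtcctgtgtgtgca
Il2ra: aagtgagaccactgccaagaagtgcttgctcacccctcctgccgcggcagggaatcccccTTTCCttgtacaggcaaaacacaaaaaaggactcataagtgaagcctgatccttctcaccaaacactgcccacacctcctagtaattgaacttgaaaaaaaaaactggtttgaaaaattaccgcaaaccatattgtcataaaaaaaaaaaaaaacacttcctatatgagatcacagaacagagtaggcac
Il1rl1: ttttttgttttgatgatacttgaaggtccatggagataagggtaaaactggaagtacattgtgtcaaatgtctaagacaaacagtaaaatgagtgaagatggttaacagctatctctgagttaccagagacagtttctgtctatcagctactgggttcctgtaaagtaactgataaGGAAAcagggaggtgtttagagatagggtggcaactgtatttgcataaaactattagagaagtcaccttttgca
Each window held 1 match, and so did 55.6% of 32851 promoter windows of the same length, at least once. The forkhead core TAAACA, or TGTTTA on the other strand, was present in the Foxp3 and Il1rl1 windows and in 12.0% of all windows. The GATA letters AGATAA, or TTATCT on the other strand, were in the Il1rl1 window and in 9.99% of all windows, and the STAT letters TTCNNNGAA, the same on both strands, were in none of the 4 and in 7.02% of all. These matches describe letters, not binding.

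The abundance of Foxp3+ cells over the diet was then compared, as a share of Cd3-positive cells. Nearly all came from protocol B, which sorted T cells: 53 of the 54. In protocol B the share was 2 of 2180 cells at D0 (0.0917%, exact 95% interval 0.0111 to 0.331), 1 of 655 at D3 (0.153%, 0.00387 to 0.848) and 5 of 3968 at D5 (0.126%, 0.0409 to 0.294). It was 9 of 1998 at D9 (0.450%, 0.206 to 0.853), 9 of 3032 at D19 (0.297%, 0.136 to 0.563) and 6 of 2469 at D25 (0.243%, 0.0892 to 0.528). The 3 later libraries were all above the 3 earlier ones, and the highest share was in STOP, 21 of 3735 cells (0.562%, 0.348 to 0.858). Protocol A gave 1 cell, of 167 Cd3-positive cells at D9 (0.599%, 0.0152 to 3.29), and 0 at the other 5 time points, where 76 to 236 Cd3-positive cells were captured. At D0 in protocol A, for instance, 0 of 136 cells allows a share of up to 2.21%.

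**Figure D1:**
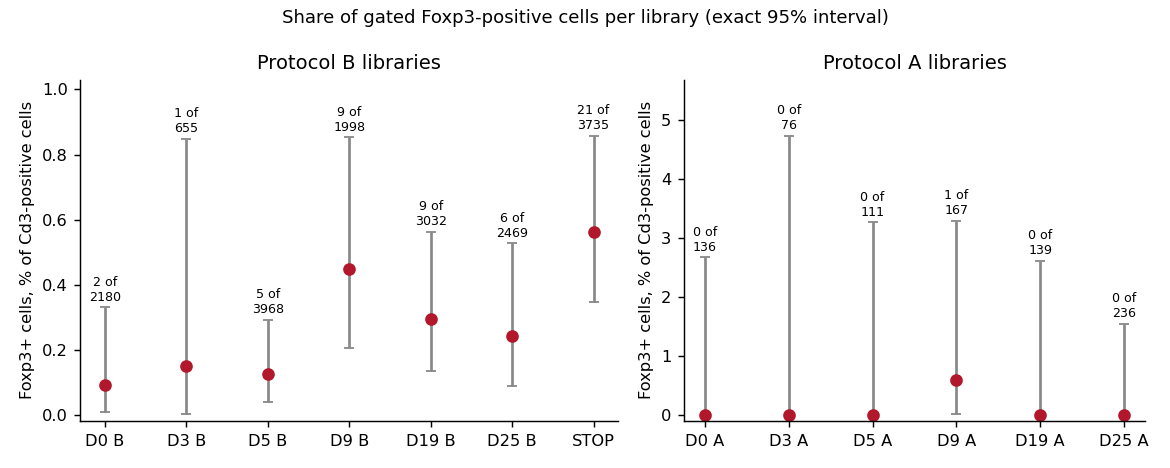
Foxp3+ cells as a percentage of Cd3-positive cells in each library, protocol B with STOP on the left and protocol A on the right, with separate vertical scales. Points are the shares, bars the exact 95% intervals and numbers the cells counted: the D9, D19, D25 and STOP points of protocol B lie above those of D0, D3 and D5, with overlapping intervals except for STOP, whose lower bound of 0.348 is above the upper bounds of D0 and D5.

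None of these differences over the diet passed a test across libraries. The mean share of the 10 DDC libraries was 0.187% ± 0.211 (SD, n = 10) and that of the 2 D0 libraries 0.0459% ± 0.0649 (SD, n = 2), a difference of 0.141 percentage points (two-sided exact permutation of libraries within protocols, p = 0.306, smallest p possible 0.0278). D9, D19 and D25 exceeded D3 and D5 by 0.195 percentage points (exact permutation, p = 0.14, smallest possible 0.01). Within protocol B alone the second difference was 0.191 percentage points, with every later library above both earlier ones, and its exact permutation p was 0.2 where 0.1 is the smallest that 3 against 2 libraries allow. Within protocol A it was 0.200 (exact permutation, p = 1) and came from the single D9 cell. The direction was not stable: with every cell thinned to 1500 UMIs, the difference of DDC from D0 became -0.44 percentage points (exact permutation, p = 0.167), because 1 of only 102 Cd3-positive cells of D0 protocol A then met the rule. The rule was applied anew after thinning. Unthinned, that library's only Cd3-positive barcode with Foxp3 failed on Epcam, so it entered because thinning removed its Epcam UMIs. In that thinned count the protocol B shares were 0.0506% at D0, 0.189% at D3, 0.115% at D5, 0.121% at D9, 0.0806% at D19, 0.251% at D25 and 0.290% in STOP, so the later libraries were no longer all above the earlier ones. STOP had no second library, so its share was not tested.

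To describe what else these cells expressed, their counts were summed within a library and set against the Foxp3-negative Cd4+ T cells of the same library. STOP alone held 10 or more Foxp3+ cells, so the comparison was fitted on the 5 libraries with at least 5, D5, D9, D19 and D25 of protocol B and STOP, with the library as a block (edgeR quasi-likelihood test, Benjamini-Hochberg adjusted p under 0.05). The comparison cells were 189 to 440 per library. Of 5820 genes tested, 50 were higher and 123 lower in the Foxp3+ cells, which is 0.859% and 2.11% of all tested and 2.97% together. The median log2 difference over all genes was -0.15, and gene lists below are read against it. Fewer genes were called without the library block (29, 14 of them higher) and with comparison cells matched in depth (16, 12 of them higher, of 1735 tested). Sums of 5 to 21 cells are small: 3 UMIs equal 181 CPM at D5, 50.6 at D9, 48.9 at D19, 126 at D25 and 21.8 in STOP.

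Of 20 core genes of the regulatory T cell programme, 16 could be tested, 9 were higher and none lower, with a median log2 difference of 1.32. The higher genes were Ikzf2, Ctla4, Tnfrsf4, Il2ra, Ikzf4, Lrrc32, Itgae, Capg and Cd83. Since the list holds genes known for accompanying Foxp3, its direction repeats how the cells were chosen and is a check of identity more than a result.

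Ikzf2 was higher in all 5 libraries. It stood at 663 CPM at D5, 506 at D9, 783 at D19, 1427 at D25 and 662 in STOP, against a mean of 80.9 ± 36.8 (SD, n = 5) in the Foxp3-negative Cd4+ cells. This mean and the other gene means with SD below used levels scaled by the normalisation factors of the fit. Levels of single libraries were not scaled in this way. The ranges of both classes did not overlap, which held for 3.85% of all genes, and the log2 difference was 3.17 ± 0.25 (SE; edgeR adjusted p = 4.21e-30). Its relative Ikzf4 (Eos), a partner of Foxp3 in repression, had no UMI at D5 and 67.4 to 210 CPM in the other 4 libraries, with a log2 difference of 2.93 ± 0.48 (edgeR adjusted p = 7.44e-07).

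Ctla4, which competes for the costimulatory ligands of antigen-presenting cells, was separated as fully. It stood at 964 CPM at D5, 826 at D9, 815 at D19, 1091 at D25 and 1323 in STOP, against 116 to 298 in the comparison cells, a log2 difference of 2.17 ± 0.23 (edgeR adjusted p = 2.3e-17). Tnfrsf4 (OX40), a costimulatory receptor, stood at 1326 CPM at D5, 556 at D9, 946 at D19, 1385 at D25 and 843 in STOP. The comparison cells ranged from 75.3 to 420, so every library's Foxp3+ cells were above every comparison value, with a log2 difference of 2.24 ± 0.23 (edgeR adjusted p = 1.76e-18). Ctla4 was detected in 48 and Tnfrsf4 in 45 of the 54 cells.

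Il2ra (CD25) separated the cells less completely. It had 0 UMIs in the 5 cells of D5, and 405 CPM at D9, 408 at D19, 168 at D25 and 269 in STOP, against 44.9 ± 10.6 (SD, n = 5) in the Foxp3-negative Cd4+ cells. It was higher in 4 of the 5 libraries, with a log2 difference of 2.48 ± 0.34 (edgeR adjusted p = 3.18e-10). Lrrc32 (GARP), which docks latent TGF-beta at the cell surface, was higher in all 5 libraries without overlap at 60.3 to 168 against 7.65 to 16.9 CPM, with a log2 difference of 2.65 ± 0.50. It rests on 26 UMIs, 1 of them from D5. Of the 8 at D19, 6 were in 1 cell that carried 102 UMIs of other lineages. At D9, 2 were in a cell that carried 28 such UMIs.

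**Figure D2:**
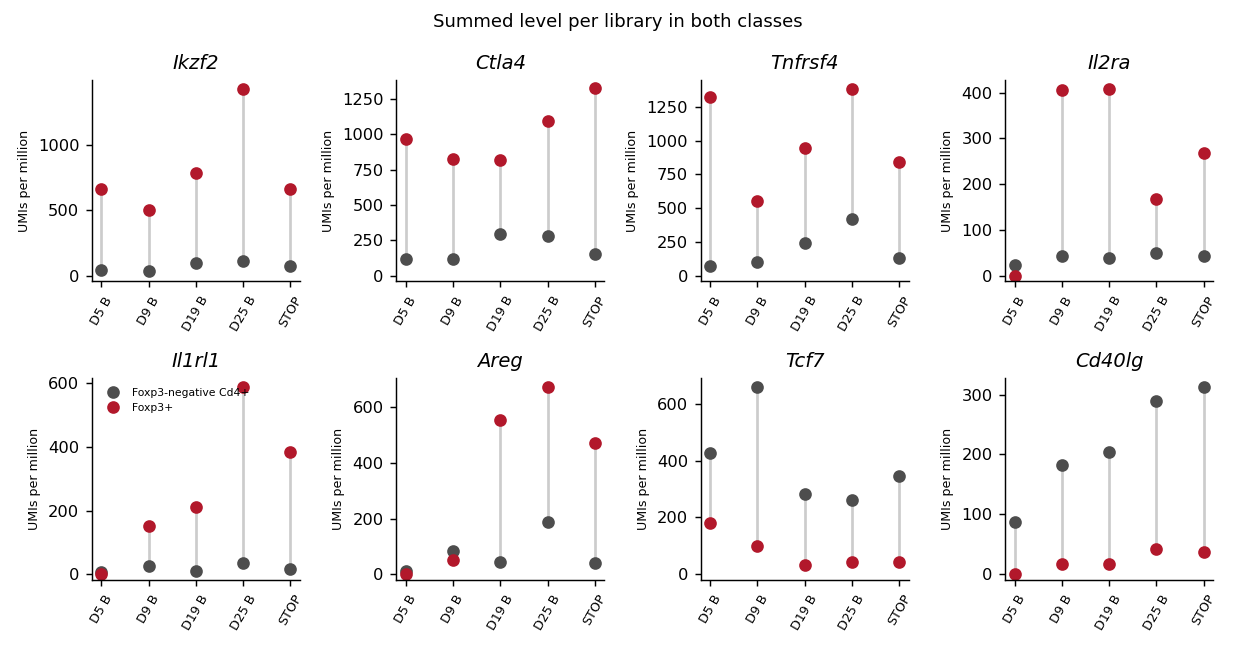
Level in CPM of 8 genes in the summed Foxp3+ cells (red) and the summed Foxp3-negative Cd4+ cells (grey) of the 5 libraries with at least 5 Foxp3+ cells, a line joining both classes of a library. Ikzf2, Ctla4 and Tnfrsf4 are higher in all 5 libraries, Il2ra and Il1rl1 in all but D5, Areg in 3, and Tcf7 and Cd40lg are lower in all 5.

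The uncalled core genes included Nrp1, a semaphorin receptor, with a log2 difference of 0.98 ± 0.32 (edgeR adjusted p = 0.0652), and the folate receptor family gene Izumo1r with 0.92 ± 0.35 (edgeR adjusted p = 0.207), which was above the comparison cells in all 5 libraries. Of the Nrp1 UMIs, 14 of 18 at D19 and 11 of 24 in STOP were in 1 cell each. Those cells carried 102 and 103 UMIs of other lineages. At D9, 8 Nrp1 UMIs were in the cell of 3711 UMIs described above, which carried 28 such UMIs. Icos, a costimulatory receptor, had a log2 difference of -0.30 ± 0.26 and varied widely, from 179 CPM at D19 to 938 in STOP. Of the called core genes, Cd83 was not called in 7 alternatives (highest adjusted p = 0.775 by edgeR or DESeq2), Capg lost its call without STOP or the library block, and Itgae without D9 or STOP.

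Genes of tissue-resident and effector regulatory T cells were higher in part. Of 23 such genes, 17 could be tested, 5 were higher and none lower, with a median log2 difference of 0.76. The 5 were Il1rl1, Itgb8, Klrg1, Areg and Gata3. Il1rl1 (ST2), the IL-33 receptor, had the largest rise of all named genes, a log2 difference of 3.61 ± 0.39 (edgeR adjusted p = 9.68e-17). It had no UMI at D5, and 152 CPM at D9, 212 at D19, 587 at D25 and 385 in STOP, against 6.85 to 36.8 in the comparison cells. The 4 libraries from D9 on were thus all above every comparison value, while D5 was below its own.

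Klrg1, a receptor of effector lymphocytes, followed the same libraries. It had no UMI at D5, 67.4 CPM at D9, 179 at D19, 126 at D25 and 131 in STOP, against 1.70 to 26.2, with a log2 difference of 2.72 ± 0.49 (edgeR adjusted p = 9.19e-06). Areg (amphiregulin), a growth factor for epithelium, had none at D5 and 50.6 CPM at D9, below the 85.0 of the D9 comparison cells. It then stood at 554 at D19, 671 at D25 and 473 in STOP against 42.9, 187 and 39.9, and its log2 difference was 2.21 ± 0.34 (edgeR adjusted p = 4.87e-08). Whether these genes differed between D5 and the later libraries was not tested, since D5 held 5 cells and 16590 UMIs.

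Itgb8, the integrin chain that activates latent TGF-beta, was present in all 5 libraries at 42.0 to 152 CPM against 0 to 13.5, a log2 difference of 3.55 ± 0.55 from 22 UMIs. Of these, 9 lay in 1 cell of D9, the only one there, and D5 and D25 had 1 UMI each. Gata3, a transcription factor of type 2 and tissue regulatory T cells, had no UMI at D5 and 182 to 839 CPM elsewhere, with a log2 difference of 1.23 ± 0.30 (edgeR adjusted p = 0.0034). The factors Rora (log2 difference 0.76 ± 0.25, edgeR adjusted p = 0.0598) and Batf (1.09 ± 0.36, edgeR adjusted p = 0.0653) missed the threshold. Areg was not called without the library block (edgeR adjusted p = 0.126), and Gata3 was not called in 5 alternatives, among them those without D9 and without D25 (highest edgeR adjusted p = 0.151). Tgfb1 itself stood at 0.17 ± 0.31. Il10, the cytokine most associated with suppression, had 5 UMIs in 3 cells and was not tested. Cxcr6 and Fgl2 had none, but in the comparison cells of the same libraries they stood at 0 and 1.84 CPM, under the 9.51 CPM that could be seen.

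Beyond the lists, the 10 called genes of largest rise with a mean of at least 5 log2 CPM also included Neb, Dusp4 and Ttc39c. Neb encodes the giant muscle protein nebulin, and it stood at 0, 320, 147, 210 and 138 CPM at D5, D9, D19, D25 and STOP, against 30.6 ± 34.5 (SD, n = 5), with a log2 difference of 2.67 ± 0.43 (edgeR adjusted p = 3.49e-07). Its 52 UMIs were spread over 23 cells, with at most 8 in 1 cell. Dusp4, a phosphatase of MAP kinases, was higher in all 5 libraries without overlap, at 94.5 to 252 against 7.61 to 55.2 CPM, a log2 difference of 2.53 ± 0.44. Ttc39c had a log2 difference of 1.85 ± 0.49 on 27 UMIs.

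All 10 listed genes of lymphoid and resting T cells could be tested, 7 were lower, none was higher, and all 10 log2 differences were below 0 with a median of -1.39. The largest was that of Tcf7 (TCF1), a factor of naive and memory T cells, which stood at 181 CPM at D5, 101.2 at D9, 32.6 at D19, 42.0 at D25 and 43.6 in STOP. The comparison cells held 261 to 660, so both ranges were apart, with a log2 difference of -2.87 ± 0.34 (edgeR adjusted p = 2.06e-13).

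Satb1, a chromatin organiser of thymocytes, was at 0 UMIs at D5 and at 50.6 to 168 CPM in the other libraries against 357 to 721, a log2 difference of -2.38 ± 0.30 (edgeR adjusted p = 6.6e-12). Lef1, the factor related to Tcf7, was at 50.6 to 210 CPM against 198 to 439, a log2 difference of -1.70 ± 0.32 (edgeR adjusted p = 2.69e-05). Igfbp4, Ccr7, Klf2 and S1pr1 were also lower, by log2 differences of -2.09, -1.25, -1.12 and -1.08, and were less uniform. Ccr7 stood at 546 CPM at D25 against 234 in the comparison cells and was lower in the other 4 libraries. Igfbp4 was found in 5 cells, with 9 of its 25 UMIs in 1 of them. Il7r and Bach2 were not called, with log2 differences of -0.50 and -1.53. Against comparison cells matched in depth, Lef1, Igfbp4, Ccr7, Klf2 and S1pr1 lost their calls, while Tcf7 and Satb1 did not.

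**Figure D3:**
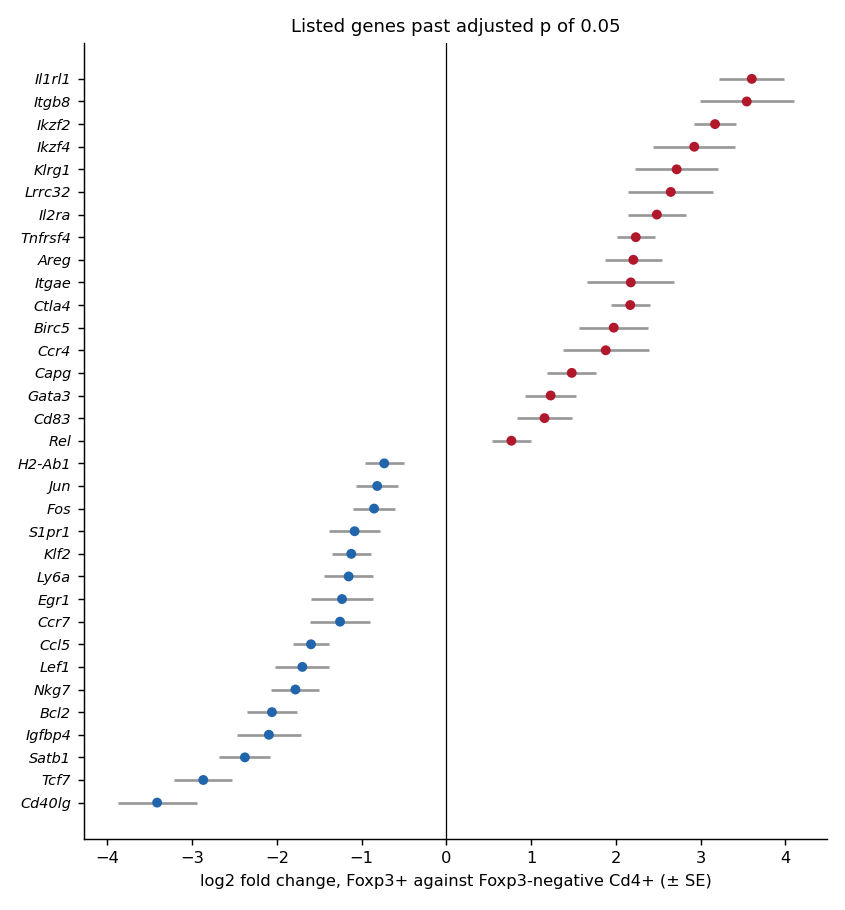
Log2 fold change of every listed gene with an adjusted p under 0.05, Foxp3+ against Foxp3-negative Cd4+ cells over 5 libraries, with bars of 1 SE (edgeR). Higher genes are in red, from Rel at 0.77 to Il1rl1 at 3.61, and lower genes in blue, from H2-Ab1 at -0.73 to Cd40lg at -3.41.

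Cd40lg, the helper signal that CD4+ T cells give to B cells and dendritic cells, was the listed gene with the largest fall. It had 8 UMIs in the Foxp3+ cells of the 5 libraries, with 0 at D5 and 16.3 to 42.0 CPM elsewhere, against 87.5 to 312 in the comparison cells, a log2 difference of -3.41 ± 0.47 (edgeR adjusted p = 3.6e-10). Of the 15 helper lineage factors and cytokines, 6 could be tested and Cd40lg was the only one called. The other tested genes included Ifng at -0.46 ± 0.41 and Tnf at -0.79 ± 0.51. Il2, Il4, Il5, Il13, Il17a, Il21, Il22 and Il23r had no UMI in the 54 cells, which allows up to 9.51 CPM for each. In the Foxp3-negative Cd4+ cells of the same libraries Il17a stood at 51.5 CPM and Il4 at 16.6, above that limit, and Il2 at 2.26, below it. Only 1.43% of those cells had Il17a and 4.72% had Il4. At such shares few of 54 cells would carry either gene, and a difference was not tested.

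Of the 10 IL-2 signalling genes, 9 were tested. Il2ra was higher and the survival gene Bcl2 lower, at 67.4 to 294 against 340 to 708 CPM with no overlap and a log2 difference of -2.06 ± 0.29 (edgeR adjusted p = 1.88e-09). The receptor chain Il2rb had 0.24 ± 0.24. Among the 11 TNF receptor and NF-kB genes, 9 were tested, all had positive log2 differences with a median of 0.50, and Tnfrsf4 and the NF-kB subunit Rel (0.77 ± 0.23, edgeR adjusted p = 0.0355) passed. Rel was called in 3 of 13 alternatives. Traf1, an adaptor of TNF receptors, had 0.55 ± 0.24 and Tnfrsf1b (TNFR2) 1.01 ± 0.37.

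Homing receptors divided. Of 20, 14 were tested, Ccr4 and Itgae were higher, and Ccr7 and S1pr1, which guide and release cells through lymph nodes, were lower. Ccr7 was not called in 8 of 12 alternatives and S1pr1 in 9 of 13. Ccr4, a skin and tissue homing receptor, had no UMI at D5 and stood at 32.6 to 135 CPM elsewhere against 16.2 to 20.2, with a log2 difference of 1.88 ± 0.51 (edgeR adjusted p = 0.0121). Itgae (CD103), which binds E-cadherin on epithelium, had 26 UMIs and a log2 difference of 2.18 ± 0.51 (edgeR adjusted p = 0.0023). Neither was called without D9. Cxcr3 stood at -1.39 ± 0.44 (edgeR adjusted p = 0.0544) and Ccr2 at 0.19 ± 0.30.

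Of the other lists, 7 of 10 proliferation genes were tested and Birc5 (survivin) was higher, with 56 UMIs in 6 cells and a log2 difference of 1.98 ± 0.41 (edgeR adjusted p = 0.0002). Without the D9 library its adjusted p was 0.0813. Mki67 was detected in 10 of the 54 Foxp3+ cells, 5 of them in STOP and none of the 9 in D19, and in 161 of 1770 comparison cells, with a log2 difference of 0.90 ± 0.36 that was not called (edgeR adjusted p = 0.239). Of the innate-like T and NK genes 5 were tested, and Nkg7 and Ccl5, which cytotoxic cells carry, were lower with log2 differences of -1.78 ± 0.28 and -1.60 ± 0.22. Both were lower in 4 of 5 libraries and higher at D5, and neither was called against depth-matched cells. Of the 10 immediate early and heat shock genes Fos, Jun and Egr1 were lower, by -0.85, -0.82 and -1.23, and Egr1 turned to 0.08 without cells at 10 or more UMIs of other lineages. Jun was not called in 10 of 13 alternatives (highest adjusted p = 0.835 by edgeR or DESeq2) and Fos in 7 of 13 (highest 0.874). Of 8 interferon-stimulated genes tested Ly6a was lower (-1.15 ± 0.29), and it was not called in 5 of 13 alternatives (highest edgeR adjusted p = 0.375). Cytosolic ribosomal protein genes were lower as a set of counts: 42 of 84 were called, none was higher, and their median was -0.70.

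The other genes among the 10 largest falls rested on very few UMIs in the Foxp3+ cells. Dapl1, a gene of naive and memory T cells, had 1 UMI against 874 in the comparison cells, a ratio of levels of 0.0281 (95% interval 0.00071 to 0.157). Themis, a signalling protein of thymocytes, had 2 UMIs against 533, Adamts1 had 1 against 400, and Ly6c1, Tubb2a and Nsg2 had 3 each. Ccl3, a chemokine, had 4 UMIs against 847, and Rflnb 5 against 758.

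Markers of other lineages were counted in the same sums, since a droplet with RNA of 2 cells can carry both. In the Foxp3+ cells 32 of 54 had 2 or more UMIs of a score that summed the other-lineage lists without the hepatocyte list and H2-Ab1, and 6 had 10 or more, with the highest counts 103 in STOP and 102 in D19. With H2-Ab1 and the hepatocyte genes counted, 40 had 2 or more and 12 had 10 or more. Hepatocyte genes were found in 21 of the cells, with at most 9 UMIs in 1 of them. Endothelial markers ranged from 83.9 CPM at D25 to 1761 at D19 with 4 of 5 genes detected, and none of the 4 endothelial genes tested was called. Of their log2 differences 3 were above 0, with a median of 0.32. The comparison cells held less of these markers at D9 (359 CPM) and D19 (527), and more at D5, D25 and STOP. Dendritic cell markers, nearly all H2-Ab1, ranged from 42.0 at D25 to 2023 at D9, and 26.2% of the H2-Ab1 UMIs came from 1 cell. They were above the comparison cells at D9 (2023 against 1172 CPM) and D19 (1778 against 1147). They were below them at D5 (301 against 3245), D25 (42.0 against 2096) and STOP (1847 against 1889). Over all 54 cells H2-Ab1 stood at 1503 CPM against 1464 in the comparison cells of the same libraries. H2-Ab1 was called lower (-0.73 ± 0.23), and its log2 difference was 0.01 without the cells at 10 or more UMIs of the score and 0.37 without those at 2 or more. The latter fit took libraries with at least 2 Foxp3+ cells left. The score does not count H2-Ab1 itself: of 8 Foxp3+ cells with 10 or more H2-Ab1 UMIs, 6 stayed below 10 UMIs of the score, 1 of them with 124 of H2-Ab1. It also does not count the innate-like T and NK genes. A D19 cell of 4849 UMIs, 6 of them of the NK gene Ncr1, scored 0, and a STOP cell of 7915 UMIs with 4 of Ncr1 scored 1. Both cells therefore stayed in after each removal. No macrophage, hepatocyte or biliary gene tested was called, and the B cell, neutrophil and stellate lists had no gene that could be tested. The part of such RNA in the other results was not tested beyond removing these cells. Without the cells at 10 or more such UMIs, Ikzf2, Ctla4, Tnfrsf4, Il2ra, Il1rl1, Klrg1, Tcf7, Satb1 and Cd40lg were called in the same direction.

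How the tissue receptors were divided among the Foxp3+ cells themselves was described next. Il1rl1 was detected in 23 of the 54 cells and Klrg1 in 17, with up to 13 UMIs of Il1rl1 and 5 of Klrg1 in 1 cell. Either receptor was found in 0 of 5 cells at D5, 4 of 9 at D9, 6 of 9 at D19, 4 of 6 at D25 and 14 of 21 in STOP. It was also found in 1 of the 2 cells of D0, and in neither the single cell of D3 nor that of D9 protocol A. With a median of 4673 UMIs a missing UMI does not show a missing transcript. In the Foxp3-negative Cd4+ cells Il1rl1 or Klrg1 was found in 9 of 275 at D5, 10 of 221 at D9, 23 of 440 at D19, 19 of 189 at D25 and 31 of 394 in STOP. The median depth of these comparison cells was 3532 to 4604 UMIs per library, and that of the Foxp3+ cells 2708 to 5959. Ccr7 was detected in 12 of the 54 Foxp3+ cells, with 13 of its 34 UMIs in 1 of them.

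**Figure D4:**
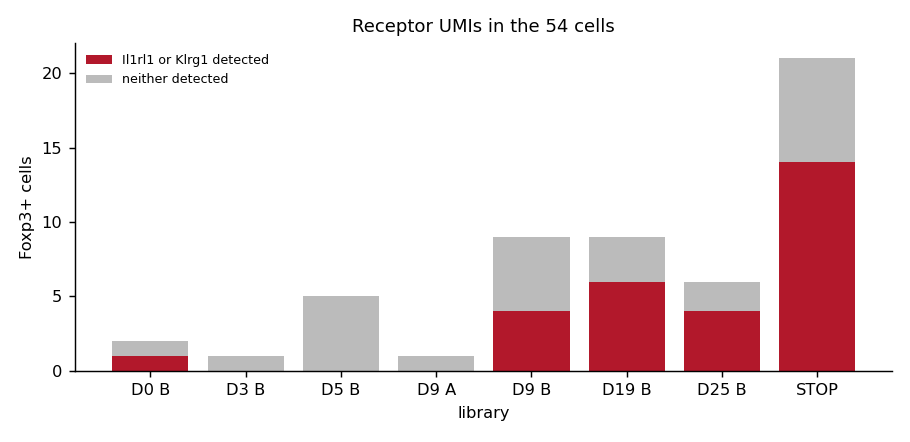
Number of Foxp3+ cells in each library with RNA of Il1rl1 or Klrg1 (red) and with neither detected (grey). Cells with either receptor number 0 of 5 at D5 and 14 of 21 in STOP.

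Recovery from the diet was compared with continued diet by setting the 21 Foxp3+ cells of STOP beside the 9 of the D19 protocol B library. With 1 library on each side there is no test, and the exact Poisson intervals cover counting error only. Of 941 genes that reached 200 CPM in either library, intervals were apart for 162 (17.2%), 96 higher in STOP (10.2%) and 66 higher in D19 (7.01%). They were apart for 79 of them (55 and 24) also among cells of at least 3000 UMIs and without cells at 10 or more other-lineage UMIs, and the latter removal alone gave 149 (79 and 70). The Foxp3-negative Cd4+ cells of the same 2 libraries differed in the same direction for 84 of the 96 genes and 31 of the 66. Some shifts ran through both classes: the gene CT010467.1 stood at 3287 CPM in STOP and 20646 in D19, and at 4099 and 25010 in the comparison cells. The shares of Foxp3+ cells in both libraries had overlapping intervals.

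Of the 10 proliferation genes, 6 were higher in the STOP cells with intervals apart and at least 200 CPM, and none was higher in D19. Only these 6 of the list reached 200 CPM. The contrast is with D19 alone, not with the diet as such. Summed over the list, the Foxp3+ cells held 904 CPM at D5, 3641 at D9, 718 at D19, 3357 at D25 and 3999 in STOP. D9 and D25, on the diet, were thus near STOP. Mki67 had 41 UMIs in STOP (298 CPM, 214 to 404) and 0 in D19, where 3 UMIs equal 48.9 CPM, and Birc5 had 28 and 0. Top2a, which untangles replicated DNA, had 34 and 2 UMIs, and Stmn1, Hmgb2 and Tubb5 had 62 and 1, 215 and 10, and 140 and 31. The histone variant H2ax, which is not on the list, had 38 and 1. These came from few cells: Mki67 was found in 5 of the 21 STOP cells with 18 UMIs in 1 of them, and 78 of the 215 Hmgb2 UMIs were in 1 cell. The Foxp3-negative Cd4+ cells were also higher in STOP for all 6 genes, with Mki67 at 105 CPM against 78.0 in D19, Stmn1 at 167 against 67.9, Hmgb2 at 798 against 475, Birc5 at 47.5 against 26.5, Top2a at 123 against 99.2 and Tubb5 at 679 against 604.

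Icos, Capg and Lgals1, also higher in STOP, were found in most of its cells. Icos had 129 UMIs in 17 of 21 STOP cells and 11 UMIs in 6 of 9 D19 cells, 938 (783 to 1115) against 179 (89.6 to 321) CPM, while the Foxp3-negative Cd4+ cells held 416 and 390. Capg, an actin-capping protein of the core list, had 106 and 6 UMIs, 771 (631 to 932) against 97.8 (35.9 to 213) CPM, in 18 of 21 and 4 of 9 cells, with 111 and 85.2 in the comparison cells. It was not low in all cells on the diet: at D25, cells of 8412, 3368 and 3483 UMIs held 10, 5 and 3 Capg UMIs, and the others none. Lgals1, a galectin of activated T cells that is on no list and was named after its values were seen, had 464 UMIs in 20 of 21 cells and 25 in 8 of 9, with 1077 and 755 CPM in the comparison cells. Ifi27l2a, an interferon-induced gene, had 338 and 25 UMIs, and 919 against 454 CPM in the comparison cells. At D25, cells of 8412 and 3368 UMIs held 18 UMIs of it each. The interferon-stimulated list in the Foxp3+ cells stood at 1869 CPM at D5, 1602 at D9, 1908 at D19, 2812 at D25 and 3250 in STOP. Hspa1b, a heat shock gene, had 54 UMIs in only 3 STOP cells, 28 of them in 1, and 0 in D19, and the comparison cells held 325 CPM in STOP and 40.0 in D19.

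With a count of 0 taken as 3 UMIs, Gzma had the largest ratio, 103 UMIs against 1, but 100 of the 103 were in 1 STOP cell. Cnp had 31 UMIs against 1. The genes with the largest ratios toward D19 were likewise carried by single cells: all 22 UMIs of Pcdh17, 67 of 67 of Ifitm1, 28 of 28 of Wfdc17, 26 of 27 of Ifit1 and 27 of 34 of Ifng came from 1 cell each. The Ifit1 and Ifng UMIs were in the same cell, which had 16413 UMIs and carried 102 UMIs of endothelial markers. Il7r, the IL-7 receptor, was higher in D19 in a broader way, 1027 (789 to 1314) against 429 (327 to 553) CPM, with UMIs in 9 of 9 and 15 of 21 cells, while the comparison cells held 729 and 760. Ccl5 (2593 against 1403 CPM) and Fos (636 against 138) were also higher in D19, with 63 of 159 and 19 of 39 UMIs in 1 cell, for Ccl5 the cell with endothelial markers. In the comparison cells Ccl5 stood at 10469 CPM in D19 and 2599 in STOP, and Fos at 539 and 463. Il1rl1, Klrg1 and Areg had no such separation between the 2 libraries.

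**Figure D5:**
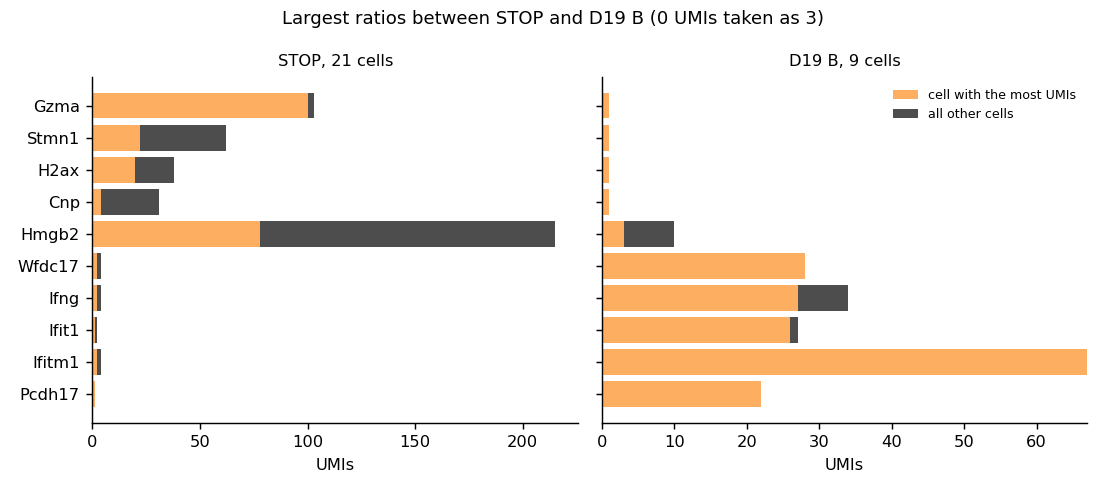
UMIs of the 10 genes with the largest ratios between the Foxp3+ cells of STOP (left, 21 cells) and D19 protocol B (right, 9 cells), on separate horizontal scales, a count of 0 being taken as 3 UMIs in the ranking. The orange part of a bar is the cell with the most UMIs: it makes up 100 of 103 Gzma UMIs in STOP and all Pcdh17, Ifitm1 and Wfdc17 UMIs in D19.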

How the data were processed

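Single-cell libraries of mouse liver were made with 10x Chromium 3' chemistry (v3.1). The authors deposited UMI counts per gene and barcode. The submitters' processing notes name kallisto and GRCm38, and versions and settings were not given in the sources used here. The cells, gene lists and tests were chosen with earlier results of these data known. Barcodes with at least 1500 UMIs, the study's threshold, were kept as cells. Foxp3+ cells had at least 1 UMI of Foxp3 and of Cd3, 0 of Cd8a, Cd8b1 and Epcam, and at most 5 of Lyz2. Doublets were not removed, except by other-lineage markers as an alternative, and no doublet caller was run. Shares of cells carry exact Clopper-Pearson 95% intervals, levels exact Poisson intervals, and 0 counts a limit of 3 counts, their exact intervals serving only to call intervals apart. Shares were compared across libraries by two-sided exact permutation within isolation protocols.

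Counts were summed per library and class and tested with edgeR 4.0.16 in R 4.3.3 (TMM, filterByExpr, quasi-likelihood test, library as block, Benjamini-Hochberg adjusted p under 0.05), after the same script was tested on simulated data. The planned fits on libraries with at least 10 or 20 Foxp3+ cells, with 2 Foxp3 UMIs, between diet stages, of interactions and of receptor classes could not be run, since STOP alone held 10 such cells. The minimum of 5 cells was chosen after seeing the data. It was 2 in the alternatives of at least 3000 UMIs and of removal at 2 or more other-lineage UMIs. DESeq2 1.42.0 was an alternative. Named genes were Foxp3, Cd4, Ikzf2, the listed genes and the 10 called genes with the largest change in each direction at a mean log2 CPM of at least 5, leaving out gate, predicted, mitochondrial, ribosomal and antigen receptor genes, and for STOP the 5 largest ratios in each direction. Promoter windows came from RefSeq (GRCm38.p6), where Foxp3, Ctla4, Il2ra and Il1rl1 were matched. Some listed genes are not reported here.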

Additional observations from a re-analysis of the deposited data

Results flagged for a closer look

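Foxp3 was also looked for in Cd3-positive cells that carried Cd8a or Cd8b1, which the rule for regulatory T cells leaves out. Only those that passed its Epcam and Lyz2 criteria were counted. In the libraries of D9, D19 and D25, 5 of 2771 such cells (0.18%, exact 95% interval 0.0586 to 0.421) had a UMI of Foxp3, against 1 of 587 (0.17%, 0.00431 to 0.945) at D0, and this signal in cells outside the comparisons, nominally above the control level, is why it is listed here. It was 1 of 1381 at D3 and D5 (0.0724%, 0.00183 to 0.403) and 1 of 1338 in STOP (0.0747%, 0.00189 to 0.416), both below D0. All these intervals overlap, and no difference was tested. Without the Epcam and Lyz2 criteria, protocol B held 1 Cd8-positive cell with Foxp3 at D0, 1 at D5, 2 at D9, 4 at D19, 2 at D25 and 3 in STOP. With them, 8 of 6077 cells over all libraries had Foxp3. Of these 8, 5 had Ikzf2, 7 had Ctla4 and 3 had Cd4, while 14.5% of the Foxp3-negative Cd8-positive cells had Ikzf2 and 17.6% had Ctla4. These detection rates are not matched in depth: the median of the Foxp3+ cells was 9942 UMIs against 5172 for all such cells at D19, 8071 against 5944 at D9, 10494 against 3930 in STOP and 3850 against 2449 at D0, and it was lower only at D5, 1521 against 4718. Cd8 was a single UMI in 2 of the 8. In the diet groups of 4 and 6 libraries, no library lay far outside its group in the share of Foxp3+ cells among Cd3-positive or among gated cells. Gene levels were not examined in this way.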

How the results depend on the processing

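The rise of Ikzf2, Ctla4, Tnfrsf4, Il2ra, Il1rl1, Ikzf4, Itgb8, Lrrc32 and Klrg1 and the fall of Tcf7, Satb1, Bcl2, Cd40lg and Dapl1 were called in every alternative in which the gene could be tested. That was all 13 alternatives for Ikzf2, Ctla4, Tnfrsf4, Tcf7, Satb1 and Bcl2, and 11 for Il2ra, Cd40lg and Dapl1. It was 10 for Il1rl1, Klrg1 and Lrrc32, and 9 for Ikzf4 and Itgb8. Of 504 pairs of a named called gene and an alternative, 382 were called in the same direction, 119 were not called, and in the others Egr1 or H2-Ab1 turned. Without cells at 10 or more other-lineage UMIs their log2 differences were 0.080 for Egr1 and 0.012 for H2-Ab1, and without those at 2 or more it was 0.37 for H2-Ab1. The removal did not count H2-Ab1, hepatocyte genes or innate-like T and NK genes. Against 173 called genes, 50 higher and 123 lower (28.9% higher), the number depended on the setting. DESeq2 called 63 (18 and 45), no filter on low counts 203 (31 and 172, 15.3% higher), cells of at least 3000 UMIs 118 (38 and 80), removal of cells at 2 or more other-lineage UMIs 125 (27 and 98), and removal of those at 10 or more 219 (68 and 151). The settings of at least 3000 UMIs and of removal at 2 or more took libraries with at least 2 Foxp3+ cells. The first kept 2 such cells at D5 and 4 at D25. The second removed 3 of 5 at D5, 7 of 9 at D9, 6 of 9 at D19 and 3 of 6 at D25. No library block gave 29 (14 and 15, 48.3% higher), comparison cells matched in depth 16 (12 and 4, 75% higher, of 1735 genes tested), and comparison cells without the Cd4 requirement 321 (64 and 257). Leaving out 1 library gave 77 to 162 called genes, 22 to 45 higher and 51 to 120 lower. The count was 77 (26 and 51) without D9, 93 (22 and 71) without STOP, 104 (39 and 65) without D25 and 110 (45 and 65, 40.9% higher) without D5. The difference in share between DDC and D0 was -0.44 percentage points in cells thinned to 1500 UMIs, with the D0 barcode that had failed on Epcam counted. With at least 2 Foxp3 UMIs it was -0.0071. The difference of D9, D19 and D25 from D3 and D5 was -0.00045 when thinned. Without 1 library these 2 differences were 0.0950 to 0.187 and 0.128 to 0.248. The causes were not tested. Both classes of cells were paired by library in the fit, and the libraries carry no replicate numbers to pair them further. With 54 cells, 5 to 21 in each library of the main fit, a gene under about 9.51 CPM could not be seen. STOP, with no second library, gave no test.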

Other observations

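Cells with the accompanying genes but no captured Foxp3 were counted. Of the Foxp3-negative Cd4+ T cells, 105 of 1770 had 3 or 4 of Ikzf2, Ctla4, Tnfrsf4 and Il2ra. By protocol B library they were 1 of 99 at D0 (1.01%), 4 of 102 at D3 (3.92%), 15 of 275 at D5 (5.45%), 8 of 221 at D9 (3.62%), 36 of 440 at D19 (8.18%), 16 of 189 at D25 (8.47%) and 25 of 394 in STOP (6.35%). What these cells are was not tested.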
